A study of Homo sapiens with 6 samples.

Results

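The 26S proteasome is the large protease that destroys ubiquitin-tagged proteins, and its genes were followed here in human leukemia cells carrying S34F mutant or wild-type U2AF1. The genes were taken by name, as every gene whose symbol is PSM followed by a letter from A to G and a number, with or without the ending IP. This gave 48 of the 31142 genes in the table. Of these, 47 encode proteasome subunits, chaperones, activators or an inhibitor, and PSMC3IP, a homologous recombination factor whose protein binds PSMC3, matched by name only. PSMA8, a testis form of an alpha subunit, was not analysed here.

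RNA was sequenced from 6 cultures labelled SKM-1, an acute myeloid leukemia line derived from MDS, 1 library each. By their labels, 3 express the S34F mutant form of U2AF1, a splicing factor that recognises the end of introns (S34F), and the other 3 the wild-type form (WT), each FLAG-tagged and brought in stably by lentivirus according to the design text, and RNA was taken at 96 h. The endogenous gene is wild type in this line by the study's own screen, so S34F cells hold both forms. The WT libraries carry a prefix that the study also uses for negative controls, which were untransfected cells, and its RNA-seq methods call the controls a vehicle control, so whether the WT cells carry the lentivirus is not certain. Each value is an FPKM (the fragments of a gene divided by its length in kilobases and by the depth of the library), which is scaled by gene length, so levels of different genes can be set side by side. The labels do not say whether the replicates are separate transductions, so the p-values measure the spread between these libraries.

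Markers of cell type went against the label in all 6 libraries. All 12 erythroid markers were expressed, with a median of 551 FPKM and a summed level of 12133 to 13894 FPKM in S34F and 11740 to 12827 in WT. Of 12 monocytic markers, 9 had a mean under 1 FPKM, with MPO, FCN1 and S100A8 at or near 0. The other 3 were expressed, with means of 15.7 FPKM for LYZ, 2.44 for CD33 and 2.42 for ITGAM. The summed level of all 12 was 12.7 to 29.9 FPKM in S34F and 23.6 to 25.9 in WT. LYZ, CD33 and ITGAM were lower in S34F in log2 fold change, CD33 and ITGAM at an unadjusted p under 0.05 (limma). The adjusted p of CD33 and of ITGAM was 0.9999 (limma), and 2.39% of all genes had an unadjusted p under 0.05. LYZ had 8.52, 8.82 and 23.2 FPKM in S34F and 18.8, 17.0 and 17.6 in WT, so S34F replicate 3 stood above every WT library. The part of these 3 markers in the proteasome values was not tested. The cells are therefore named by their label only. The libraries numbered 3 also stood apart: on the first principal component of all genes, with 47.9% of the variance, S34F replicate 3 lay at 35.1 and WT replicate 3 at 12.9, and the other 4 libraries between -16.3 and -7.71. U2AF1 had 9.18 to 9.48 FPKM in S34F and 7.65 to 8.70 in WT, its near-identical copy U2AF1L5 had 9.18 to 9.78 and 9.22 to 10.04, and gene-level FPKM cannot tell mutant from wild-type transcripts.

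Proteasome biology is modular. A 20S barrel is built from outer rings of alpha subunits, which gate the entrance, and inner rings of beta subunits, of which PSMB5, PSMB6 and PSMB7 carry the chymotrypsin-like, caspase-like and trypsin-like cutting sites. Interferon replaces these with PSMB8, PSMB9 and PSMB10 to give the immunoproteasome, which makes peptides for antigen presentation, and induces the PSME1 and PSME2 cap. The 19S particle binds ubiquitin chains, removes them and unfolds the substrate with a ring of PSMC ATPases, and dedicated chaperones assemble both parts. Multiple myeloma, a cancer of antibody-making blood cells, is treated with proteasome inhibitors, and the transcription factor NFE2L1 raises the subunit genes together when the protease is blocked.

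Interferon induces the immunoproteasome and cap genes as a set. Of the 47 family genes with a mean of at least 1 FPKM, PSMB8 and PSMB9 had the lowest means. Promoter sequences of the immunoproteasome and cap genes are therefore shown first, with PSMB3, the most abundant proteasome gene, beside them. They come from RefSeq (GRCh38.p14), run 5′ to 3′ on the gene's strand from 250 bases before the start of transcription to 50 bases into the transcript, and were found for 42 of the 48 genes. Capitals mark every match, on either strand, to the antioxidant response element TGACNNNGC that the NFE2L1 family binds (GCNNNGTCA on the other strand), to the CCAAT box (ATTGG on the other strand) and to the interferon-stimulated response element GAAANNGAAA (TTTCNNTTTC on the other strand). Matches to more than 1 motif may overlap and each was counted.
PSMB8 (chr6:32843998-32844297, minus strand): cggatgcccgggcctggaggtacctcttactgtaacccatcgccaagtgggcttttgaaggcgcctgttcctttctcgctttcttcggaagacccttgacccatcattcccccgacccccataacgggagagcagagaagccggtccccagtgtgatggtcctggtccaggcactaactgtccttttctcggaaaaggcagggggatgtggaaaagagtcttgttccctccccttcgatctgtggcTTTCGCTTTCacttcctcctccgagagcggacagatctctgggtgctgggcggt
PSMB10 (chr16:67936801-67937100, minus strand): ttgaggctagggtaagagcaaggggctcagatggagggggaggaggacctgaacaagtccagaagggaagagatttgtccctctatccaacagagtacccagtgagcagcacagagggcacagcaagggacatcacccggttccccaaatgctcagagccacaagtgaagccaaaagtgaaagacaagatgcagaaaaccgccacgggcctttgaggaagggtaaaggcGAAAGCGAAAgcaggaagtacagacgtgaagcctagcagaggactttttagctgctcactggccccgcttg
PSME1 (chr14:24135944-24136243, plus strand): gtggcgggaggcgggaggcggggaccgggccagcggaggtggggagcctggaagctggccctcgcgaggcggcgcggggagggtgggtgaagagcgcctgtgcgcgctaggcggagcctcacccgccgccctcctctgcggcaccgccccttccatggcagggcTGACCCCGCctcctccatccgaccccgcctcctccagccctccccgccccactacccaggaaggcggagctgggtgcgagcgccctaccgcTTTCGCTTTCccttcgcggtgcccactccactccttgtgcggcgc
PSME2 (chr14:24146561-24146860, minus strand): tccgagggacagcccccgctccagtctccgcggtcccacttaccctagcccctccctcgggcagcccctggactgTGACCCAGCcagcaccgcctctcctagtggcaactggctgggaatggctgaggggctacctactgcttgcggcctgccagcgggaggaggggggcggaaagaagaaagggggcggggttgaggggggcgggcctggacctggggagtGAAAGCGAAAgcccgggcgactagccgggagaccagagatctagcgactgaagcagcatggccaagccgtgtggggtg
PSMB9 (chr6:32853942-32854241, plus strand): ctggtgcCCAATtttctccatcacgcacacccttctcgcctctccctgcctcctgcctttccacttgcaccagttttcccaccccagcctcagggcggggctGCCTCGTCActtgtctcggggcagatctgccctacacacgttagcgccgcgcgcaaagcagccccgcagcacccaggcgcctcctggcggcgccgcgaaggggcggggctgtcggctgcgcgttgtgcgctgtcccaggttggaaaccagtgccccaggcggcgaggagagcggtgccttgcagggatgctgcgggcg
PSMB3 (chr17:38752491-38752790, plus strand): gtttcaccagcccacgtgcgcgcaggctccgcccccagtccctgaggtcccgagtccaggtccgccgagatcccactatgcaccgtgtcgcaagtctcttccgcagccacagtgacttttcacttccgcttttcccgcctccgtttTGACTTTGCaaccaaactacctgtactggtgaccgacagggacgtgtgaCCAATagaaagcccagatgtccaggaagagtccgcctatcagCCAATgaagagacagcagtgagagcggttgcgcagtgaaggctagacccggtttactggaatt
The interferon element stood in 7 of the 42 proteasome promoters, 16.7%, against 3.65% of all 27305 promoters of this length. It was present in PSMB8, PSMB10, PSME1 and PSME2, and also in PSMA4, PSMB4 and PSMG4. In PSMB8 the match began 4 bases before the start and in PSMB10 21 bases before it, while PSMB9 held no match in this window. The antioxidant element stood in 13 of the 42, 31.0%, against 13.5% of all promoters, and PSMB3, PSMB9, PSME1 and PSME2 were among them. The CCAAT box stood in 19 of the 42, 45.2%, against 35.6% of all promoters. These are matches of letters and no binding was measured.

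The proteasome was expressed at a high level in every library. The median gene of the family had 28.7 FPKM, above 86.7% of the 10942 genes with a mean of at least 1 FPKM, whose median was 5.31 FPKM. Levels of at least 100 FPKM were reached by 6 genes, 31 lay between 10 and 100, 10 between 1 and 10, and PSMB11 lay under 1. The 48 genes together made up 0.684%, 0.696% and 0.736% of the summed FPKM in S34F replicates 1, 2 and 3 and 0.655%, 0.659% and 0.665% in WT replicates 1, 2 and 3. The share was thus higher in each S34F library than in any WT library, with S34F replicate 3 the farthest above. The summed FPKM of the 48 genes as deposited overlapped, at 2339, 2396 and 2472 in S34F and 2283, 2274 and 2354 in WT. Neither sum was tested.

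**Figure D1:**
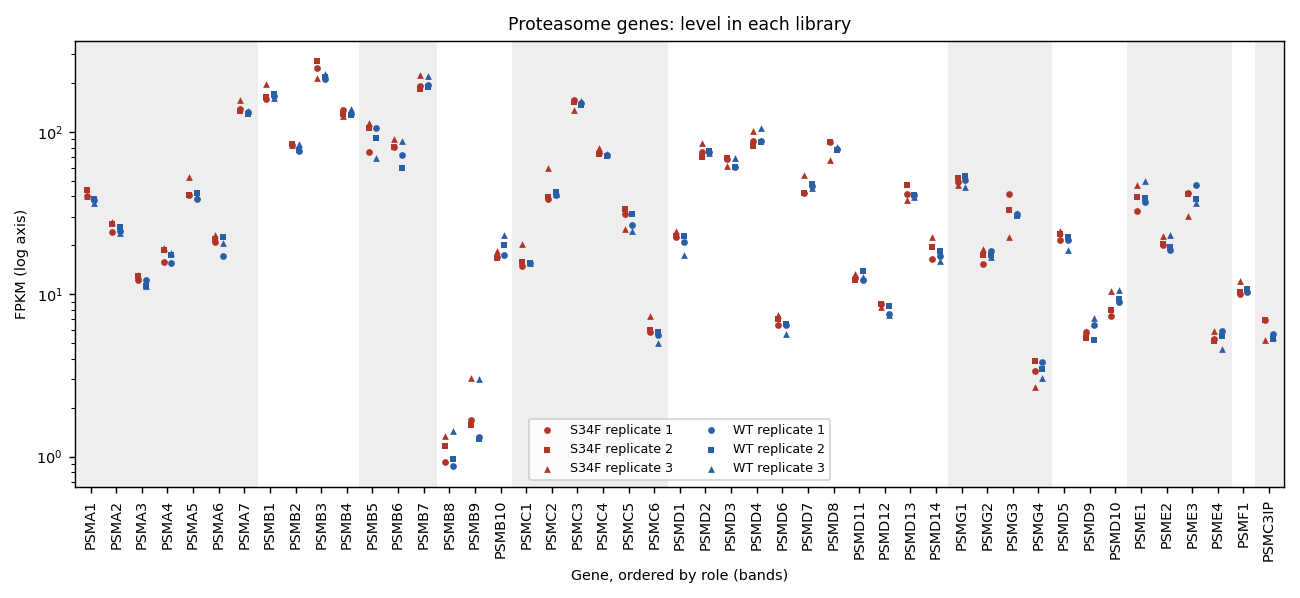
FPKM (log axis) of 47 proteasome-named genes in each of the 6 libraries, with genes grouped by role in shaded and white bands, red for S34F, blue for WT, and circles, squares and triangles for replicates 1, 2 and 3. PSMB8 and PSMB9 lie at the bottom, far below the constitutive beta genes, and their triangles stand highest in both groups; PSMB11, listed at 0 in 5 libraries, is not drawn.

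Subunits that sit in the complex in equal number differed widely in mRNA level. Among the 14 constitutive 20S genes the mean over 6 libraries ran from 232 FPKM for PSMB3 to 12.2 FPKM for PSMA3, a 19.1-fold range, with a median of 80.0. All 7 beta genes lay above every alpha gene except PSMA7, whose 138 FPKM placed it between PSMB1 at 170 and PSMB4 at 130. The summed beta level was 3.13 to 3.47 times the summed alpha level in the 6 libraries. Of the 13 steps in this order, the ranges of the neighbouring genes did not overlap at 6, namely below PSMB1, PSMB4, PSMB6, PSMA1, PSMA2 and PSMA4. The ranges overlapped at the other 7 steps, although at 2 of them, PSMB7 over PSMB1 and PSMA6 over PSMA4, the first gene was higher within each of the 6 libraries.

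The 19S particle showed the same kind of range. Its 17 genes ran from PSMC3, an ATPase, at 150 FPKM to PSMC6, another ATPase of the same ring, at 5.94 FPKM, a 25.2-fold range around a median of 41.2. Next to PSMC3 stood PSMD4, a ubiquitin receptor, at 91.9 FPKM, PSMD8 at 79.3 and PSMD2 at 76.1, whose ranges overlapped each other. At the low end stood PSMD12 at 8.21 FPKM, PSMD6 at 6.59 and PSMC6, and PSMD14, the subunit that cuts the ubiquitin chain off, had 18.3 FPKM. The order was almost the same in every library, with rank correlations between libraries of 0.974 to 1 over the 14 core genes and 0.973 to 1 over the 17 genes of the 19S particle. These are correlations across genes, which share the annotation and its lengths. Genes named only for their place in these orders were picked after their values were seen.

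Transcripts of PSMB8 and PSMB9, both immunoproteasome subunits, were scarce. PSMB8, the interferon-induced counterpart of PSMB5, had 0.928, 1.17 and 1.34 FPKM in S34F replicates 1, 2 and 3 and 0.871, 0.969 and 1.44 in WT replicates 1, 2 and 3. PSMB5 had 75.5, 106 and 113 FPKM in S34F and 105, 91.5 and 69.0 in WT. As a share of the pair, PSMB8 thus made up 1.21%, 1.09% and 1.18% in S34F and 0.822%, 1.05% and 2.05% in WT. The groups overlapped for both genes and for the share, and the highest share stood in WT replicate 3, where PSMB8 was at its highest and PSMB5 at its lowest of the 6 libraries.

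PSMB9, the counterpart of PSMB6, had 1.69, 1.56 and 3.05 FPKM in S34F and 1.31, 1.28 and 3.03 in WT. PSMB6 had 80.6, 81.1 and 90.8 FPKM in S34F and 72.5, 60.0 and 87.7 in WT. PSMB9 was 1.78% to 3.34% of this pair, with the highest share in replicate 3 of each group. PSMB8 and PSMB9 are neighbours in the class II region of the major histocompatibility complex (chr6:32840717-32844703 and chr6:32844136-32859585, GENCODE 29 on GRCh38) and their annotated spans overlap on opposite strands. Whether counting used strand is not stated, so reads in the overlap may not be told apart.

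PSMB10 was the exception among the induced subunits. It had 17.0, 16.8 and 18.4 FPKM in S34F and 17.4, 20.04 and 23.3 in WT, next to 193, 185 and 223 FPKM of PSMB7 in S34F and 193, 188 and 219 in WT. Its share of the pair was 8.02% ± 0.361 (SD, n = 3) in S34F and 9.17% ± 0.778 (SD, n = 3) in WT, and the ranges met, with the highest S34F library at 8.33% and the lowest WT library at 8.27%. PSMB11, the catalytic subunit of the thymus, was listed at 0 in 5 libraries and at 0.0339 FPKM in S34F replicate 3, where a level of 3 fragments would be 0.0574 FPKM. It was under the filter and not tested, and it was at or below what this depth can show.

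To ask whether S34F changed proteasome gene expression, each gene was compared between the groups with limma on log2(FPKM + 1), fitted over all 10942 genes. Of the 47 genes of the family tested, which leave out PSMB11 and include PSMC3IP, 0 had a Benjamini-Hochberg adjusted p under 0.05, as had 0% of all genes. At an unadjusted p under 0.05 there were 0 proteasome genes, where 2.39% of all genes were called (262 genes), and with the replicate number as a block there were again 0, where 4.05% of all genes were called (443 genes). There were 0 that passed the study's limit of a fold change above 1.5 with an unadjusted p under 0.05, where 0.585% of all genes did. The smallest unadjusted p of the family was 0.169, for PSMB10, and every adjusted p was 1.00. The 95% confidence interval of the fold change lay within 1.5-fold in both directions for 45 of the 47 genes, and reached past it for PSMB9 (0.693 to 1.72) and PSMB5 (0.784 to 1.56). For those 45 genes, a change of 1.5-fold on the FPKM + 1 scale thus lay outside the interval, while some smaller changes lay inside it.

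More proteasome genes lay above 0 than below, a count with no test since genes are not replicates. The log2 fold change of S34F over WT was above 0 for 34 genes and below 0 for 13, with a median of 0.06 and a range of -0.20 to 0.21. Over all 10942 genes 54.6% lay above 0, with a median of 0.01, and the 3037 genes at or above the lower quartile of proteasome levels had 53.8% above 0. The count above 0 was 31 with quantile normalization and 40 with each library scaled to the same FPKM sum, and it was 29 without S34F replicate 3. Without both libraries numbered 3 it was 27 of 46, with 19 below. The standard errors of single genes ran from 0.09 to 0.28. In bulk RNA, fewer cells of a type and less RNA per cell cannot be told apart.

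**Figure D2:**
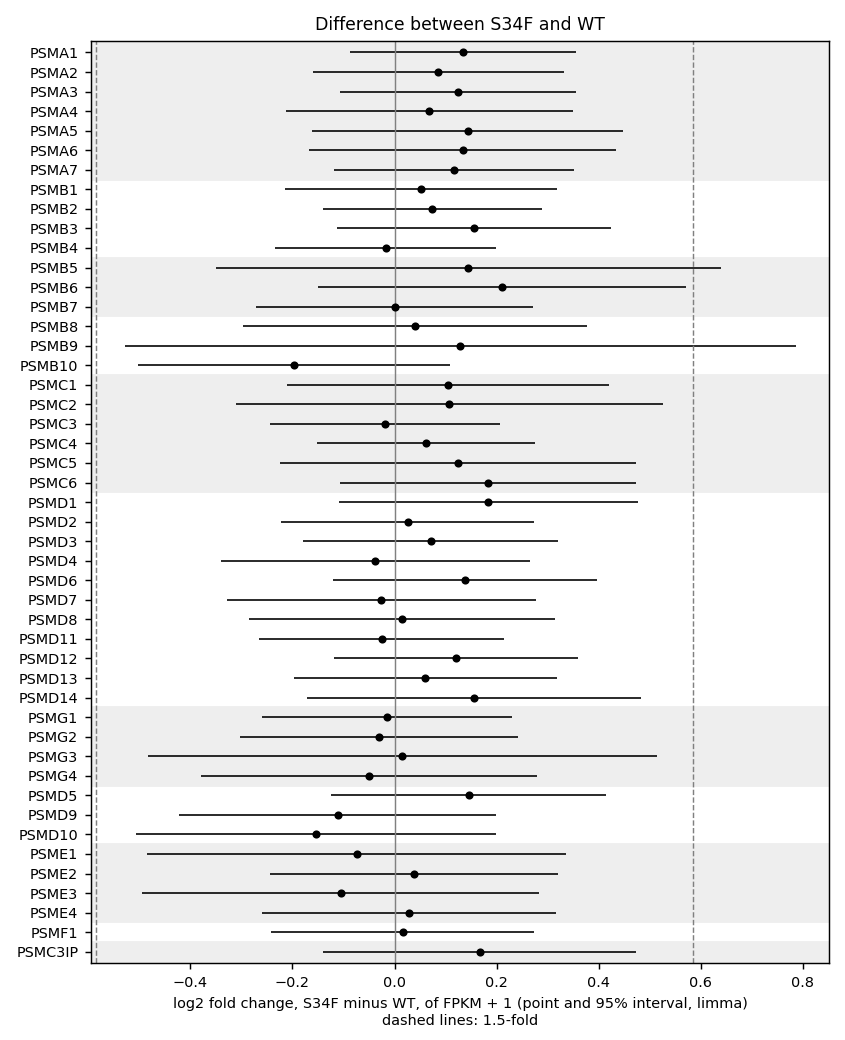
log2 fold change of S34F over WT (of FPKM + 1) for the 47 tested genes in order of role, with the 95% confidence interval from limma as a bar and dashed lines at a change of 1.5-fold. Every interval contains 0, and those of PSMB5 and PSMB9 pass the upper dashed line.

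The induced beta subunits differed in sign. PSMB10 had a log2 fold change of -0.20 ± 0.13 (SE, n = 3 per group, unadjusted p = 0.169, limma), PSMB9 of 0.13 ± 0.28 (unadjusted p = 0.656, limma) and PSMB8 of 0.04 ± 0.14 (unadjusted p = 0.784, limma). For PSMB10, WT replicates 2 and 3 stood above all S34F libraries and WT replicate 1 among them. PSMB9 was higher in S34F within each of the 3 pairs of like number, and replicate 3 was high in both groups. In the model with a replicate block the SE of PSMB9 was 0.10 (unadjusted p = 0.263, limma). Without both libraries numbered 3 the log2 fold change of PSMB9 came to 0.19 (unadjusted p = 0.0608, limma).

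The alpha ring gates the barrel. All 7 alpha genes had a log2 fold change above 0, between 0.07 for PSMA4 and 0.14 for PSMA5, with a median of 0.12. PSMA5 had 41.1, 40.8 and 52.8 FPKM in S34F and 38.8, 41.9 and 40.2 in WT (unadjusted p = 0.302, adjusted p = 1.00, limma), and S34F replicate 3 stood above the other 5 libraries. PSMA4 had 15.8, 18.7 and 19.3 FPKM in S34F and 15.7, 17.4 and 18.0 in WT, and the groups overlapped. Without S34F replicate 3 the median of the ring was 0.05.

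PSMA1, an alpha subunit picked out here after its values were seen, was the single proteasome gene whose groups did not overlap. It had 40.4, 43.9 and 40.2 FPKM in S34F against 38.0, 38.5 and 36.5 in WT, a log2 fold change of 0.13 ± 0.09 (SE, n = 3 per group, unadjusted p = 0.193 and adjusted p = 1.00, limma). Groups that did not overlap in this direction were found for 3.66% of all genes, and in the other direction, where 0 proteasome genes lay, for 3.73%. A count of 1 in 47 is below that background.

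The catalytic beta genes lie on separate chromosomes (GENCODE 29 on GRCh38), PSMB5 at chr14:23016543-23035230 (minus strand), PSMB6 at chr17:4796144-4798503 (plus strand) and PSMB7 at chr9:124353466-124415444 (minus strand). They had log2 fold changes of 0.21 ± 0.15 for PSMB6, 0.14 ± 0.21 for PSMB5 and 0.00 ± 0.11 for PSMB7 (SE, n = 3 per group), from the FPKM given above. Both groups of PSMB7 had a mean of 200 FPKM, with the highest value in replicate 3 of each. PSMB5 was the least stable of the constitutive core genes, with its lowest values in S34F replicate 1 and WT replicate 3. Without WT replicate 3, PSMB6 came to 0.35 on the log2 scale (unadjusted p = 0.0386, adjusted p = 1.00, limma), where 3.18% of all genes had an unadjusted p under 0.05, and PSMB5 turned to -0.02.

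Among the structural beta genes, which have no cutting site, 3 of 4 lay above 0. PSMB3 had 249, 273 and 215 FPKM in S34F and 212, 218 and 228 in WT, a log2 fold change of 0.16 ± 0.11 (SE, n = 3 per group, unadjusted p = 0.212, limma). Its first and second S34F libraries stood above all WT libraries and the third among them. PSMB4 had 135, 129 and 124 FPKM in S34F and 128, 127 and 139 in WT, with groups that overlapped.

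The 19S ATPases lay above 0 in 5 of 6 genes, with a median log2 fold change of 0.11. PSMC6, the least abundant, had 5.82, 6.03 and 7.30 FPKM in S34F and 5.64, 5.86 and 4.98 in WT, a log2 fold change of 0.18 ± 0.12 (SE, n = 3 per group, unadjusted p = 0.179, limma). PSMC3 had 156, 153 and 137 FPKM in S34F and 152, 146 and 154 in WT, so the lowest library was S34F replicate 3. PSMC2, singled out after its values were seen, had 38.5, 39.7 and 59.8 FPKM in S34F and 41.1, 42.5 and 41.6 in WT. Its highest value came from S34F replicate 3 alone.

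The 11 other 19S subunits had a median log2 fold change of 0.06, with 8 above and 3 below 0. PSMD1, the large scaffold subunit, had 22.4, 22.8 and 24.5 FPKM in S34F and 21.0, 22.8 and 17.5 in WT (log2 fold change 0.18 ± 0.12, SE, n = 3 per group, unadjusted p = 0.181, limma), and its low WT value came from replicate 3. PSMD4 had 88.5, 82.0 and 101 FPKM in S34F and 87.5, 86.5 and 105 in WT. Both groups of PSMD4 were highest in replicate 3 and they overlapped.

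The assembly factors were mixed. Of the 20S chaperones PSMG1 to PSMG4, 1 lay above 0 and 3 below, with a median log2 fold change of -0.02 that came to 0.01 with equal FPKM sums. PSMG3 had 41.3, 33.2 and 22.5 FPKM in S34F and 31.3, 30.2 and 31.6 in WT, so that its highest and lowest values of the 6 libraries both came from S34F. PSMG4, the least abundant chaperone, had 3.36, 3.86 and 2.69 FPKM in S34F and 3.82, 3.46 and 3.04 in WT.

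Of the 19S chaperones, PSMD5 had 21.7, 23.4 and 24.6 FPKM in S34F and 21.7, 22.4 and 18.7 in WT. PSMD10, which is also known as gankyrin and is an oncoprotein in liver, had 7.35, 8.01 and 10.5 FPKM in S34F and 8.95, 9.32 and 10.6 in WT, a log2 fold change of -0.15 ± 0.15 (SE, n = 3 per group, unadjusted p = 0.333, limma). Within each group replicate 3 was the highest for PSMD10, and its first and second S34F libraries lay below all WT libraries. PSMD9 lay between 5.24 and 7.17 FPKM with groups that overlapped.

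The activators split evenly. PSME1, part of the interferon-induced cap and named here after its values were seen, had 32.8, 39.6 and 47.3 FPKM in S34F and 36.9, 39.3 and 49.6 in WT. Its partner PSME2 had 20.02, 20.4 and 22.7 FPKM in S34F and 18.8, 19.5 and 23.2 in WT, again highest in replicate 3 of both groups. PSME3, the nuclear form of the cap, had 41.8, 41.7 and 30.4 FPKM in S34F and 46.9, 38.8 and 36.6 in WT, and was lowest in replicate 3 of both groups. The cap genes were thus far more abundant than PSMB8 and PSMB9, although interferon induces all 4 of PSME1, PSME2, PSMB8 and PSMB9. PSME4, which encodes the PA200 activator, lay between 4.63 and 5.97 FPKM, and PSMF1, which encodes an inhibitor of the core, between 9.99 and 12.1 FPKM.

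S34F replicate 3 also stood apart in this family. It held the highest value of the 6 libraries for 23 of the 47 genes, 48.9%, against 31.4% of all genes, and its median deviation from the 6-library mean was 0.13 on the log2 scale over the 47 genes and 0.01 over all genes. WT replicate 3 lay among the other libraries, with a median deviation of -0.03, the highest value for 17.0% of the 47 genes and the lowest for 25.5%, against 12.1% and 23.6% of all genes. In S34F, replicate 3 was more than 1.2 times the mean of replicates 1 and 2 for 12 genes, 25.5%, against 30.5% of all genes. It was less than that mean divided by 1.2 for 7, 14.9%, against 30.3%. In WT it was above by as much for 8 genes, 17.0%, against 16.6% of all genes, and below for 3, 6.38%, against 27.6%. Replicate 3 was more than 1.2 times that mean in both groups for 3 of the 47, 6.38%, against 10.2% of all genes. These were PSMB9 (1.88 times in S34F and 2.33 times in WT), PSMB8 (1.28 and 1.57 times) and PSME1 (1.31 and 1.30 times). Below that mean by as much in both groups were 0 of the 47, against 13.8% of all genes. The part of this shift in any difference between the groups was not tested.

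Leaving out libraries numbered 3 moved the counts of calls in the family and in the whole table together. Without S34F replicate 3, 3 of 47 genes, 6.38%, had an unadjusted p under 0.05, where 10.6% of all genes did. In limma they were PSMC3IP at a log2 fold change of 0.28 (unadjusted p = 0.0125, adjusted p = 0.330), PSMB3 at 0.25 (unadjusted p = 0.0189, adjusted p = 0.365) and PSMD10 at -0.29 (unadjusted p = 0.0317, adjusted p = 0.417). Without both libraries numbered 3, 8 of 46 genes, 17.4%, passed, where 16.9% of all genes did. These 8 were PSMB2, PSMB3, PSMB6, PSMC3IP, PSMD3 and PSMD8, which lay above 0, and PSMD7 and PSMD10, which lay below, and the smallest adjusted p among them was 0.172, for PSMD3 (limma). The shares of proteasome genes called were near or under those of all genes, and 2 libraries per group were left in this last fit.

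Replicate spread set how small a difference could be seen. The median residual SD on the log2 scale was 0.13 for the 47 genes and 0.18 for all genes. For the 3037 genes at or above the lower quartile of proteasome levels, a set with no upper limit, it was 0.18. Within the family the residual SD ran from 0.05 for PSMC4 to 0.42 for PSMB9. PSMC4 had 72.7 to 79.3 FPKM in S34F and 70.6 to 73.4 in WT. After PSMB9 came PSMB5 and PSMG3 at 0.31, PSMC2 at 0.25 and PSME1 at 0.24. No test of this difference in spread was made.

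The genes that work with the proteasome, taken from a fixed list outside the naming rule, gave no call either. All 30 were tested, and 24 lay above 0 and 6 below with a median log2 fold change of 0.06. Over all 10942 genes 54.6% lay above 0, with a median of 0.01. This count has no test either, since genes are not replicates. Of the 30, 0 had an unadjusted p under 0.05 (limma, smallest 0.121, for DDI2, the protease that activates NFE2L1). POMP, the maturation factor of the 20S core, had 82.7, 88.7 and 102 FPKM in S34F and 89.3, 92.6 and 86.9 in WT. SEM1, the smallest 19S subunit, had 5.999, 7.26 and 10.3 FPKM in S34F and 8.18, 8.44 and 8.30 in WT. NFE2L1 had 25.5, 25.6 and 34.2 FPKM in S34F and 27.3, 28.0 and 29.6 in WT. The groups overlapped for each of these, and in the S34F group replicate 3 was the highest for all 3.

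Of the 10 genes of interferon signalling and class I peptide loading, 9 were tested and NLRC5, the class I transactivator, lay under the filter. There were 5 above 0 and 4 below, and 0 had an unadjusted p under 0.05. TAP1, which lies beside PSMB8 and PSMB9 and carries peptides into the endoplasmic reticulum, had 5.06, 5.40 and 7.12 FPKM in S34F and 4.13, 4.04 and 8.32 in WT. IRF1, an interferon-induced transcription factor, had 2.31, 2.42 and 4.32 FPKM in S34F and 2.29, 2.17 and 3.45 in WT. Both of these, named after their values were seen, were highest in replicate 3 of each group, as PSMB8, PSMB9 and PSME1 were.

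Processed copies of proteasome genes can take reads from their parents. Of 13 proteasome pseudogenes listed, 2 reached 1 FPKM, PSMA6P1 at 4.49 and PSMC1P1 at 2.005, so PSMA6 and PSMC1 are the less certain values, and of 4 antisense genes PSMA3-AS1 reached 1.07 FPKM beside 12.2 of PSMA3.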

How the data were processed

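Total RNA of 6 cultures was sequenced on an Illumina X10. The authors deposited 1 table of FPKM per gene, from StringTie as far as the submitters' processing notes name tools; the version, aligner, build and annotation are not given in the sources used here. The table's name speaks of counts, but 100% of the values above 0 were not whole. Its fold changes, p-values and q-values are the authors' own comparison and were not used. Samples were grouped by title.

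FPKM as deposited were tested with limma 3.58.1 (R 4.3.3) with a mean-variance trend on log2(FPKM + 1) for the 10942 genes of mean FPKM at least 1, with Benjamini-Hochberg adjustment over all of them. A fold change is on this scale and understates changes of low genes. The depth, read from the value of 1 fragment in single-exon genes, was about 20.5 to 26.1 M fragments, the FPKM sums ran from 335673 to 353709, and floors cover counting error only. Of the gene identifiers, 31002 were in GENCODE 29.

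The proteasome genes and the lists were chosen with earlier results of these data known. Values per library are given for the catalytic and induced beta genes, the largest rise and fall in each role of at least 3 tested genes, any gene with an unadjusted p under 0.05 or a mean under 1 FPKM, and POMP, SEM1 and NFE2L1; others are marked as chosen after their values were seen. Deviations from the group means correlated across genes at 0.212, 0.174 and 0.380 between libraries of the same number. As this was over 0.1 in each pair, a replicate block was tried as an alternative. The printed values come from a fit that has no block, unless a block is named. S34F replicate 2 and WT replicate 1 correlated at 0.197, and S34F replicate 1 and WT replicate 2 at 0.134. Unlike numbers thus passed the same limit, so these values cannot show whether the libraries were paired by number. Alternatives were other scalings, filters, pseudocounts and variance models, a replicate block, and libraries left out. Python 3.11.15, pandas 2.3.3, numpy 2.4.6 and matplotlib 3.10.9 were used.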

Additional observations from a re-analysis of the deposited data

How the results depend on the processing

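The 0 proteasome genes with an adjusted p under 0.05, and the 0 past a fold of 1.5 with an unadjusted p under 0.05, stayed at 0 in every alternative run. The count at an unadjusted p under 0.05 ran from 0 to 3 with each library left out in turn and was 8 without both libraries numbered 3. A model with a replicate block gave 0 as well, with the median log2 fold change of 0.06 and with 443 genes called in the whole table in place of 262. The median over the family ran from 0.03 to 0.08 with each library left out and from 0.03, without both libraries numbered 3, to 0.10 under the other alternatives.

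The log2 fold change of single genes turned sign in some alternatives, and this was followed for part of the family only. That part was the catalytic and induced beta genes and the largest rise and fall in each role of at least 3 tested genes. Whether the other genes kept their sign is not given here. PSMB7 came to -0.0109 with median-ratio scaling, -0.00139 with upper quartile scaling and -0.0125 without both libraries numbered 3. PSMG3 came to -0.00279 with quantile normalization. PSMB4 and PSMC3 came to 0.0176 and 0.0165 with equal FPKM sums, an alternative chosen after the data were seen, and to 0.0510 and 0.0586 without both libraries numbered 3, where PSMB5 came to -0.133. With each library left out in turn, the ranges that held both signs were -0.0488 to 0.0221 for PSMB4, -0.0225 to 0.320 for PSMB5, -0.0802 to 0.0677 for PSMB7, -0.0360 to 0.156 for PSMB8, -0.0800 to 0.399 for PSMB9, -0.0550 to 0.0398 for PSMC3, -0.121 to 0.0530 for PSMD4, -0.0180 to 0.125 for PSME2, -0.181 to 0.0423 for PSME3, -0.177 to 0.248 for PSMG3 and -0.142 to 0.0556 for PSMG4. The cause was not tested. Identifiers were not summed, since each proteasome gene had 1 identifier. The 95% intervals leave room for differences under 1.5-fold, and depth limits PSMB11, which lay at or under the level of 3 fragments.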
